A study of Rattus norvegicus with 9 samples.

Results

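The respiratory chain is the set of protein complexes in the inner mitochondrial membrane that carries electrons from NADH and succinate to oxygen. The 34 nuclear-encoded subunit genes described here were chosen by gene symbol; the rule itself uses no measured value. They are 34 of the 14607 genes listed in any library: 17 of complex I, 4 of complex II, 6 of complex III, 6 of complex IV, and Cycs, the gene of cytochrome c. All 34 were listed in all 9 libraries and all 34 passed the filter on low counts.

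Complex I takes electrons from NADH and complex II from succinate, both pass them to ubiquinone, complex III moves them on to cytochrome c, and complex IV gives them to oxygen. The core subunits of the electron path are here called catalytic (13 of the 34). All others are here called supernumerary (21 of the 34). Most of these support assembly, stability and regulation, but they include Uqcrc1 and Uqcrc2, the core proteins of complex III. Subunits encoded in mitochondrial DNA, which include the catalytic subunits of complex IV, were not analysed here for any complex. Heart muscle depends on this chain for most of its ATP, and its cells are dense with mitochondria.

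The libraries were made from messenger RNA of primary cardiomyocytes, isolated from the hearts of SD rats 1 to 2 days old, with the genotype given as WT for all. The 3 groups were lenti-NC, cells infected with a lentiviral vector control; lenti-TCF7L2, cells infected with a lentivirus for overexpression of TCF7L2, a transcription factor that works with β-catenin in Wnt signalling; and lenti-shTCF7L2, cells infected with a lentivirus carrying a short hairpin RNA against it. Virus was present for 16 h in every group and culture went on for 48 h, so all 9 libraries, 3 per group, come from infected cells. The labels give neither the promoter of the vectors nor the species of the TCF7L2 insert, and do not say that replicates were separate cultures, so p-values measure the spread between these samples, which may be technical.

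Libraries held 15085922 to 16478295 expected counts. Tcf7l2 read 595, 540 and 510 counts in the control libraries. The overexpression libraries read 2251, 3240 and 1434, and the hairpin libraries 388, 465 and 391. It was 1.97 ± 0.27 (SE) higher on the log2 scale with lenti-TCF7L2 (edgeR quasi-likelihood test, adjusted p = 0.000846). With lenti-shTCF7L2 it was -0.43 ± 0.27 (adjusted p = 0.511, not past the threshold of 0.05), with all 3 libraries below all 3 controls. Lenti-TCF7L2 replicate 3 stood apart: its genes of up to 1000 bases read a median of 0.49 above the lenti-NC mean and its genes over 8000 bases -0.98 (log2), against -0.07 and -0.01 in replicate 2 and within 0.06 of zero in the lenti-NC and lenti-shTCF7L2 libraries. Replicate 1 showed a milder slope of the same direction, from 0.14 to -0.33. Because the subunit genes are short (351 bases for Ndufs6 to 2519 for Ndufs1, with 16 of 34 at or under 1000), counts of members called are given with and without replicate 3, and so are those of the other gene lists in the first comparison.

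In control cells the complexes sat at different levels per gene length. The median FPKM (fragments scaled to gene length and library depth) with lenti-NC was 109 over the 17 members of complex I, 172 over complex II, 205 over complex III and 486 over the 6 members of complex IV. Complex IV held the 6 highest places of the 34. Cox4i1, a regulatory subunit of cytochrome oxidase, led with 700 ± 22.8 FPKM (SD, n = 3), followed by Cox5b at 509 ± 20.1 and Cox5a at 499 ± 49.1, and this last pair differed by less than its spread. Cycs stood at 247 ± 13.1. The 3 lowest were members of complex I: Ndufb3 at 76.6 ± 8.0, Ndufa10 at 72.9 ± 0.565 and Ndufs4 at 43.2 ± 0.606, so that Cox4i1 read 16.2 times the level of Ndufs4. Members of complex II lay close together, between 166 and 191 FPKM, a ratio of 1.15 from lowest to highest. The ratio was 5.23 within complex I, 3.35 within complex III and 1.82 within complex IV.

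**Figure D1:**
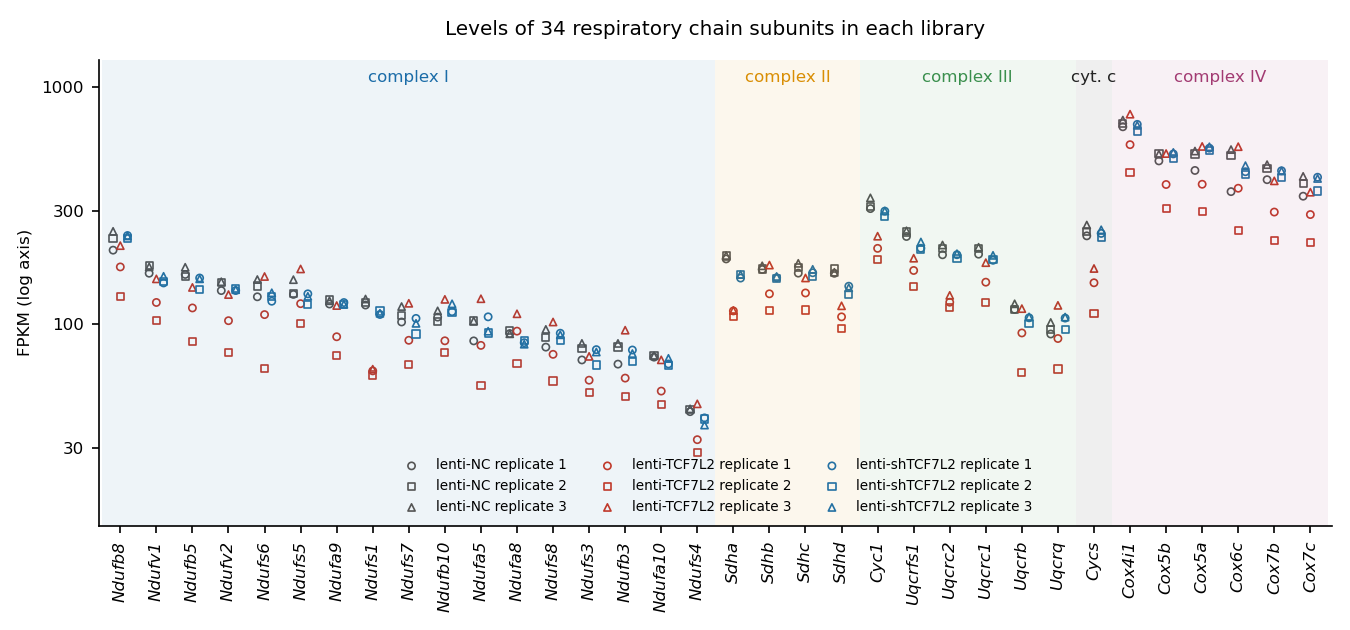
FPKM of the 34 subunits in each of the 9 libraries on a log axis, ordered within each complex by the lenti-NC mean, 1 symbol per library, grey for lenti-NC, red for lenti-TCF7L2 and blue for lenti-shTCF7L2. The 6 members of complex IV sit highest in the lenti-NC libraries, and the red squares (lenti-TCF7L2 replicate 2) are the lowest symbol for every member.

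Promoters were examined because nuclear respiratory genes are known as targets of NRF1 and of the ETS factor GABP, and because TCF7L2 itself binds the TCF/LEF motif. The promoter table used here, from RefSeq (assembly GRCr8), matched 29 of the 34 members; Ndufs6, Ndufa8, Uqcrb, Cyc1 and Cox6c were not matched. In the 250 bases before the annotated start, on both strands, the ETS motif CCGGAAG was present in 7 of 29 (24.1%): Ndufs1, Ndufs8, Sdhb, Sdhd, Uqcrc2, Uqcrq and Cox5b. It was present in 15.2% of the 9572 promoters of tested genes. The full palindromic NRF1 motif was in 0 of 29 (1.68% of tested genes), and a shorter core inside it, GCATGCGC, which was added once the full motif had given 0, was in 3 of 29 (10.3% against 4.54%): Sdhb, Uqcrc1 and Cycs. The TCF/LEF motif CTTTGAT was in Ndufa5 and Sdhc (6.90% against 1.96%). The ERR motif TNAAGGTCA (0.470% of tested genes), the YY1 motif AAGATGGC (2.20%) and the TATA motif TATAAA (6.85%) were each in 0 of 29. With 29 promoters these counts are small, and they describe letters, not bound sites.

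Of the promoters, 4 are shown: those of the members with the largest differences described next that hold an ETS or NRF1 match, and that of Sdhc as a member with a TCF/LEF match. Each runs 5′ to 3′ on the gene's strand and ends at the base before the start, in GRCr8, with capitals for the match or its reverse complement. For Cycs (chr4:80984768-80985017, minus strand) the capitals mark the NRF1 core, for Uqcrc2 (chr1:184598990-184599239, plus strand, 2 matches) and Ndufs1 (chr9:72073606-72073855, minus strand) the ETS motif, and for Sdhc (chr13:86098026-86098275, minus strand) the TCF/LEF motif. Ndufa5, not shown, holds 2 TCF/LEF matches and was not called in lenti-TCF7L2 against lenti-NC (log2 difference -0.19). Sdhc, with 1 match, was called lower (-0.40).
Cycs: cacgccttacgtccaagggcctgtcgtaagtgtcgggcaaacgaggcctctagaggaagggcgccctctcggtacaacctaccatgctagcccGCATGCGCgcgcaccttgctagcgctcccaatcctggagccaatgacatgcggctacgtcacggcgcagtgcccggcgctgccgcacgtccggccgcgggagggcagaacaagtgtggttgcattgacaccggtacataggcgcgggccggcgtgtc
Uqcrc2: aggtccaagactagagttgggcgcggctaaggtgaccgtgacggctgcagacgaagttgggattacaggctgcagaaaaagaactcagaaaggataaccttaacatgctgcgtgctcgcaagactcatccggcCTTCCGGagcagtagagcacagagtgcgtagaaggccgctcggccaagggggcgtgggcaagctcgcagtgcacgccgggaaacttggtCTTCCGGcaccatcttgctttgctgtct
Ndufs1: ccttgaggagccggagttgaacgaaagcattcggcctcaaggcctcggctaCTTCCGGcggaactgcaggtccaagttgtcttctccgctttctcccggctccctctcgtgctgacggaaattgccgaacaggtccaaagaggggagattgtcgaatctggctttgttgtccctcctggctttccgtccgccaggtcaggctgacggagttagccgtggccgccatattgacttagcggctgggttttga
Sdhc: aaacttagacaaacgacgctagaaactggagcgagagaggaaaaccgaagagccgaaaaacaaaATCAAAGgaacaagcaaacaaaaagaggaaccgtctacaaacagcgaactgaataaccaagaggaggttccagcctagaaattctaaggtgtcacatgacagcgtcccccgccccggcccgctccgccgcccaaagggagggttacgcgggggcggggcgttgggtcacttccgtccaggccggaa

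The first comparison, lenti-TCF7L2 against lenti-NC, asks which subunits differed when TCF7L2 was raised. All 34 members were lower on average, and 16 of 34 passed the test as lower and 0 as higher, where 13.8% of the 11761 genes tested were called lower and 18.0% higher. By unadjusted p under 0.05, 21 of 34 were lower (19.3% of genes tested). The median log2 difference of the 34 was -0.42, against 0.03 over all genes tested. Called lower were 7 of 17 in complex I (median -0.40), 3 of 4 in complex II (-0.54), 4 of 6 in complex III (-0.53), Cycs (-0.83) and 1 of 6 in complex IV (-0.35). Among catalytic members 10 of 13 were called (median -0.54), and among supernumerary members 6 of 21 (-0.38), Uqcrc1 and Uqcrc2 among them. Differences between complexes or between these classes were not tested, and the classes differ in gene length. In 16 of the 34 members all 3 lenti-TCF7L2 libraries lay below all 3 controls (22.0% of genes tested did). In bulk RNA, fewer cells of a type and less RNA per cell cannot be told apart.

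In complex I the largest difference was in the electron-input arm. Ndufs1, the iron-sulphur subunit that carries electrons away from the flavin, read 4590, 4706 and 4907 counts in the lenti-NC libraries. Lenti-TCF7L2 gave 2500, 2379 and 2690. The groups were far apart and the 3 lenti-TCF7L2 libraries close together. The log2 difference was -1.02 ± 0.06 (SE, edgeR quasi-likelihood test, adjusted p = 2.64e-05), so that its level fell by 50.8%, the most of the 34. Ndufv1, which holds the NADH-binding site and the flavin, read 3700, 3989 and 3968 counts against 2876, 2392 and 3827. Its replicate 3 overlapped the controls in raw counts but lay below all of them after scaling to library size, with a difference of -0.48 ± 0.13 (adjusted p = 0.0218). Ndufv2, its iron-sulphur partner, was called at -0.54 (adjusted p = 0.0376) and Ndufs3, of the ubiquinone-reducing part, at -0.40 (adjusted p = 0.0488) with overlapping groups.

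Among supernumerary subunits of complex I, Ndufb5, of the membrane arm, read 2552, 2494 and 2759 counts against 1903, 1356 and 2458. All 3 lenti-TCF7L2 libraries were below the controls, with replicate 3 the nearest. Its difference was -0.57 ± 0.16 (adjusted p = 0.0275). Ndufa9 (-0.46, adjusted p = 0.0451) and Ndufa10 (-0.43, adjusted p = 0.0431) were also called. Ndufa10 read 2203, 2235 and 2250 counts against 1635, 1420 and 2343, with replicate 3 below the controls only after scaling. The counts of Ndufa10 were fractional in all 9 libraries, as happens where fragments are shared with other transcripts, so its values are uncertain. The 10 members of complex I that did not pass ran from -0.44 (Ndufb8) to -0.07 (Ndufa8). Ndufa8, a supernumerary subunit of the membrane arm, had the largest adjusted p of the complex and read 805, 833 and 810 counts against 851, 616 and 1066, with the groups overlapping. Ndufs4 and Ndufb3, among the 3 members of lowest level, did not pass either. Ndufs4, which helps complete the electron-input arm, read 969, 988 and 1004 counts against 762, 668 and 1142 (-0.33 ± 0.15, adjusted p = 0.131). Ndufb3, of the membrane arm, read 709, 838 and 874 counts against 639, 529 and 1077 (-0.23 ± 0.21, adjusted p = 0.417). In both, replicates 1 and 2 were below all controls and replicate 3 above them. The other 6 not called were Ndufs5, Ndufs6, Ndufs7, Ndufs8, Ndufa5 and Ndufb10, at -0.15 to -0.41.

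Complex II, which is also the succinate dehydrogenase of the citric acid cycle, fell in 3 of its 4 genes. Sdha, its flavoprotein, read 6482, 6670 and 6757 counts against 4039, 3796 and 4295. The groups were well apart and the difference was -0.83 ± 0.06 (adjusted p = 4.65e-05). Of the membrane anchors, Sdhd read 3056, 3195 and 3112 counts against 2067, 1832 and 2435, a difference of -0.68 ± 0.09 (adjusted p = 0.000613). Sdhc read 2897, 3069 and 3213 counts against 2467, 2070 and 3020, a difference of -0.40 ± 0.11 (adjusted p = 0.0221). Its replicate 3 lay just under the controls after scaling. Sdhb, the iron-sulphur subunit, read 2534, 2548 and 2648 counts against 2066, 1742 and 2890. Replicates 1 and 2 were below the controls and replicate 3 among them, and the difference of -0.33 ± 0.14 did not pass (adjusted p = 0.0976).

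In complex III the members Cyc1 and Uqcrfs1, which carry cofactors, and the core scaffold proteins Uqcrc1 and Uqcrc2 fell. Uqcrc2, a core protein, read 5492, 5842 and 6089 counts against 3577, 3373 and 4046. The groups did not overlap, and the difference was -0.78 ± 0.07 (adjusted p = 0.000128). Cyc1, which carries the haem that reduces cytochrome c, read 5464, 5573 and 6114 counts against 3834, 3418 and 4566 (-0.65 ± 0.09, adjusted p = 0.000934). Uqcrfs1, the Rieske iron-sulphur protein, read 3862, 4036 and 4115 counts against 2866, 2434 and 3417 (-0.58 ± 0.10, adjusted p = 0.00247). In both genes every lenti-TCF7L2 library was below every control. Uqcrc1, the other core protein, was called at -0.48 (adjusted p = 0.0170). The small subunits Uqcrb (-0.43, adjusted p = 0.104) and Uqcrq (-0.13, adjusted p = 0.617) did not pass, and Uqcrq read 2034, 2124 and 2294 counts against 2010, 1479 and 2935.

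Cycs, the mobile carrier between complexes III and IV, read 4313, 4510 and 4831 counts in controls against 2823, 2071 and 3432. The groups were apart, though the 3 lenti-TCF7L2 libraries spread more than the controls. The difference was -0.83 ± 0.14 (adjusted p = 0.00248), and its level fell by 43.9%.

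In complex IV 1 of the 6 members passed. Cox7b, a small supernumerary subunit, read 2726, 3029 and 3181 counts against 2055, 1539 and 2944, and passed with -0.57 ± 0.18 (adjusted p = 0.0374); its counts were fractional in 8 of 9 libraries, so it too is uncertain. Cox7c read 2423, 2739 and 2962 counts against 2093, 1578 and 2752 (-0.46 ± 0.16, adjusted p = 0.0582). Cox5b, which binds zinc, read 3361, 3617 and 3616 counts against 2759, 2163 and 3944 (-0.38 ± 0.16, adjusted p = 0.104). In both, replicates 1 and 2 were below all controls and replicate 3 was not. Cox4i1 read 6883, 7137 and 7408 counts against 5973, 4504 and 8499 (-0.30 ± 0.17, adjusted p = 0.208). Cox5a read 3849, 4514 and 4686 counts against 3475, 2638 and 5309 (-0.32 ± 0.20, adjusted p = 0.241), with replicate 3 just above the controls after scaling. Cox6c had the largest adjusted p of the complex (-0.31 ± 0.26, adjusted p = 0.381), and its controls were themselves uneven at 2383, 3393 and 3614 counts, against 2542, 1675 and 4028.

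The spread of the members within lenti-TCF7L2 followed one order. Replicate 3 was the highest of its group and replicate 2 the lowest in 34 of 34 members. Replicates 1 and 2 lay below all controls in 34 of 34, while replicate 3 did so in 16 and lay above all controls in 10. The share of all genes tested with each of these patterns was not counted. Medians of all tested genes of up to 1000 bases had the same order, at 0.49 in replicate 3, 0.14 in replicate 1 and -0.07 in replicate 2. The median deviation of the members from the lenti-NC mean was -0.45 in replicate 1, -0.80 in replicate 2 and -0.10 in replicate 3. The 3 libraries spanned a median of 0.72 (log2) per member, from 0.09 for Ndufs1 and Sdha to 1.29 for Ndufs6, against medians of 0.14 within lenti-NC and 0.11 within lenti-shTCF7L2. Tcf7l2 counts ran in the opposite order, 3240 in replicate 2, 2251 in replicate 1 and 1434 in replicate 3. Tcf7l2 has 4017 bases, and medians of all tested genes over 4000 and up to 8000 bases ran in that order too. They were 0.04, -0.16 and -0.52 in replicates 2, 1 and 3. The part of Tcf7l2 level and of the length trend in the members' order was not tested, and with 3 libraries they cannot be told apart.

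**Figure D2:**
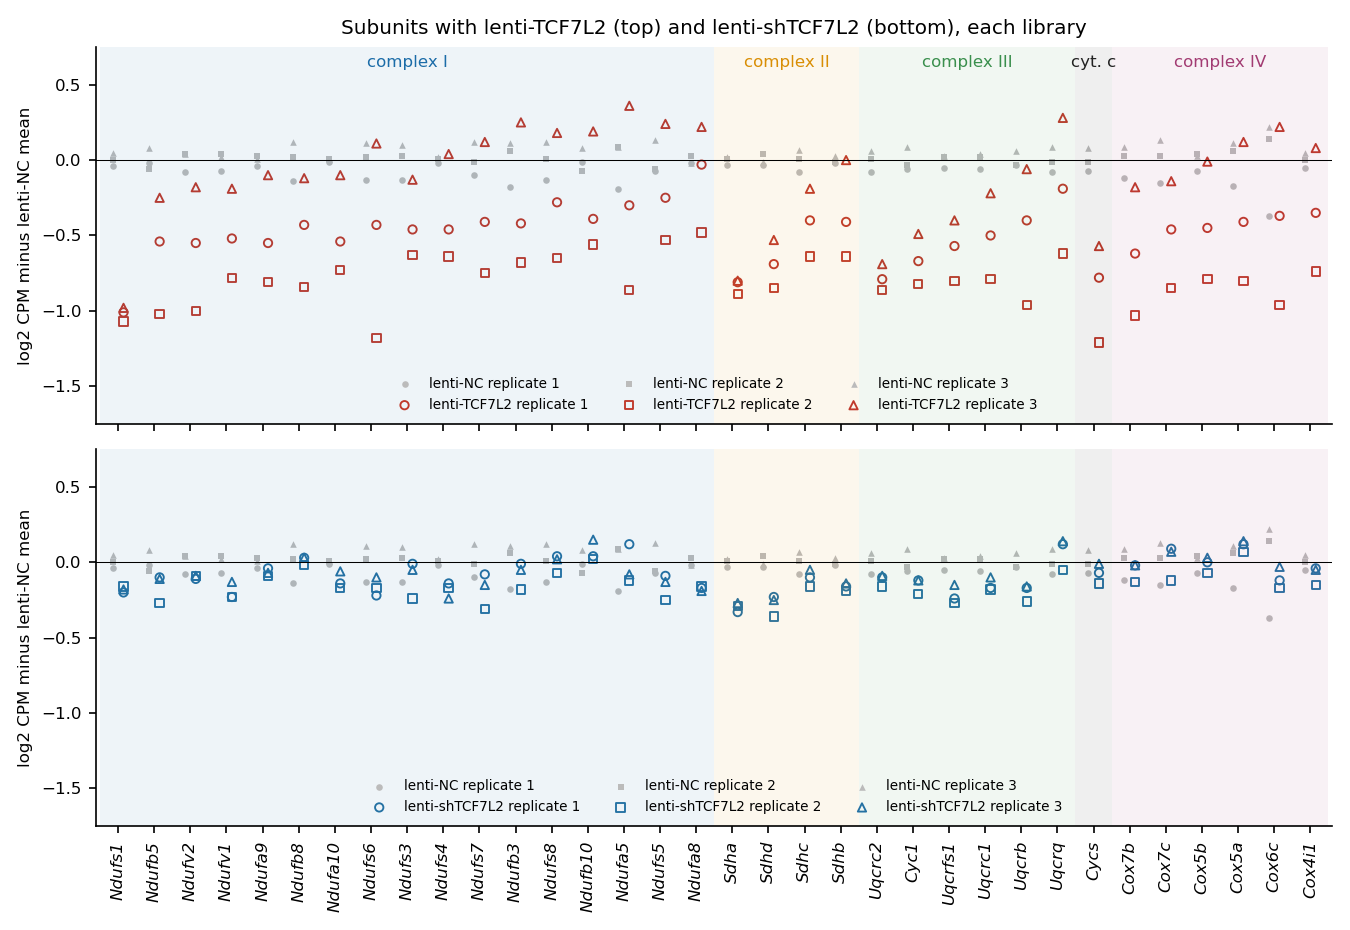
Log2 CPM of each subunit minus its lenti-NC mean, with the lenti-NC libraries in grey beside lenti-TCF7L2 (top, red) or lenti-shTCF7L2 (bottom, blue), 1 symbol per library. Red circles and squares (replicates 1 and 2) lie below the grey symbols for all 34 members and red triangles (replicate 3) for 16, while the blue symbols stay within 0.36 of zero.

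Without replicate 3, more members passed in each of complexes I to IV. In all, 33 of 34 members were called lower (21.5% of genes tested were), all but Ndufa8, with a median of -0.65. Complex IV went from 1 to 6 of 6 called and its median from -0.35 to -0.65, beside -0.59 in complex I (16 of 17), -0.66 in complex II (4 of 4), -0.69 in complex III (6 of 6) and -1.0 for Cycs. Cox4i1 was then at -0.55 ± 0.09 (adjusted p = 0.000319) and Cox6c at -0.67 ± 0.17 (adjusted p = 0.00499). Here the 2 remaining libraries carry the group, and the fit takes their spread jointly with the other groups. Replicate 3 was the highest of its group in all 34 members, so leaving it out lowers the group mean. Leaving out replicate 2, the lowest in all 34, raises it. Then 2 of the 16 members of up to 1000 bases were called lower (median -0.13), where 8.48% of tested genes of that length were. Of the 18 longer members 11 were (median -0.36), where 23.7% of longer genes were.

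Keeping all 9 libraries but removing each library's trend with gene length gave a result like that without replicate 3. In that fit 33 of 34 were called lower (17.6% of genes tested were), all but Uqcrq (-0.27, adjusted p = 0.135), with medians of -0.50, -0.69, -0.67 and -0.58 in complexes I, II, III and IV and -0.99 for Cycs. Doing both called 34 of 34, with a median of -0.66 (22.3% of genes tested). Ndufs1 was nearly the same in every treatment, at -1.06 without replicate 3 and -1.03 after length adjustment, while Ndufs6, the shortest gene, went from -0.41 to -0.78 and -0.68.

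**Figure D3:**
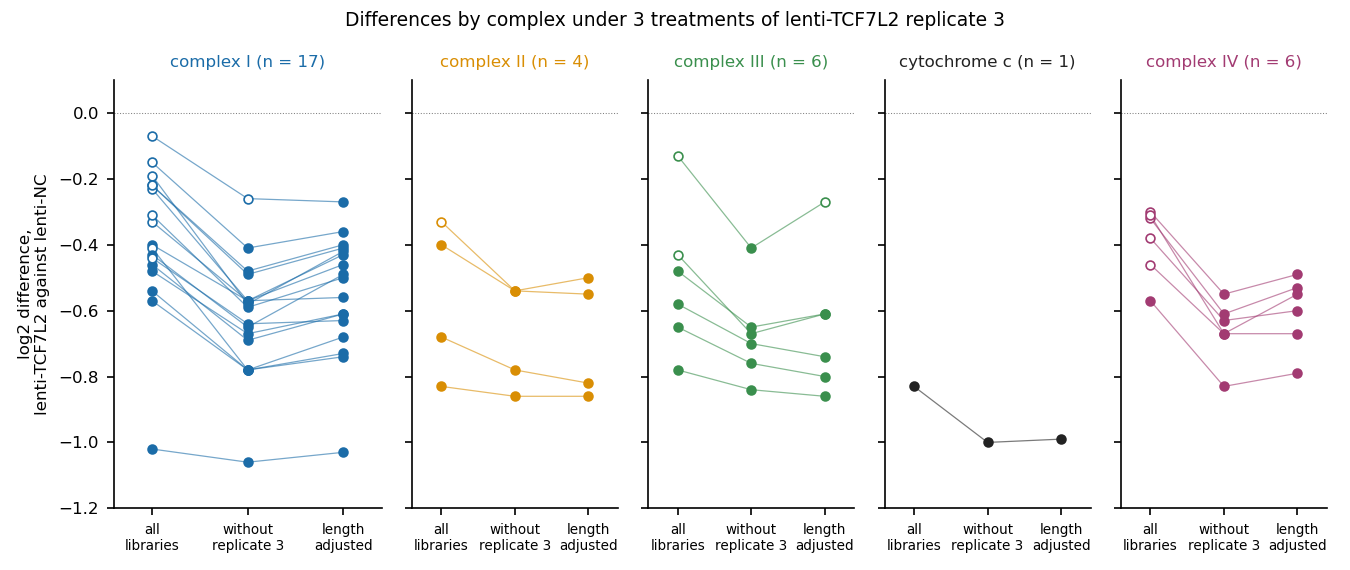
Log2 difference of each subunit between lenti-TCF7L2 and lenti-NC, by complex, in all 9 libraries, without lenti-TCF7L2 replicate 3, and after length adjustment; lines join the same gene, and filled points have an adjusted p under 0.05. Complex IV goes from 1 to 6 filled points of 6, and complex III keeps 1 open point (Uqcrq) after length adjustment.

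Length and difference were related among the members themselves. With all libraries, 2 of the 16 members of at most 1000 bases were called lower, where 6.13% of all 1093 tested genes of that length were (medians -0.31 and 0.20). Of the 18 longer members 14 were, where 14.6% of longer genes were (medians -0.48 and 0.02). Pearson's r between log2 length and log2 difference was -0.56 over 34 members (Spearman's rho -0.51), and -0.36 without replicate 3 (rho -0.29). These points share the same libraries and the figure is a description across genes, which are not independent. In each lenti-TCF7L2 library 34 of 34 members lay below the median of all tested genes of their length class. In lenti-NC replicates 1, 2 and 3, 31, 9 and 5 members did, and in the lenti-shTCF7L2 libraries 30 to 32. In replicate 3, the median of complex IV was 0.04 while genes of up to 1000 bases were at 0.49.

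**Figure D4:**
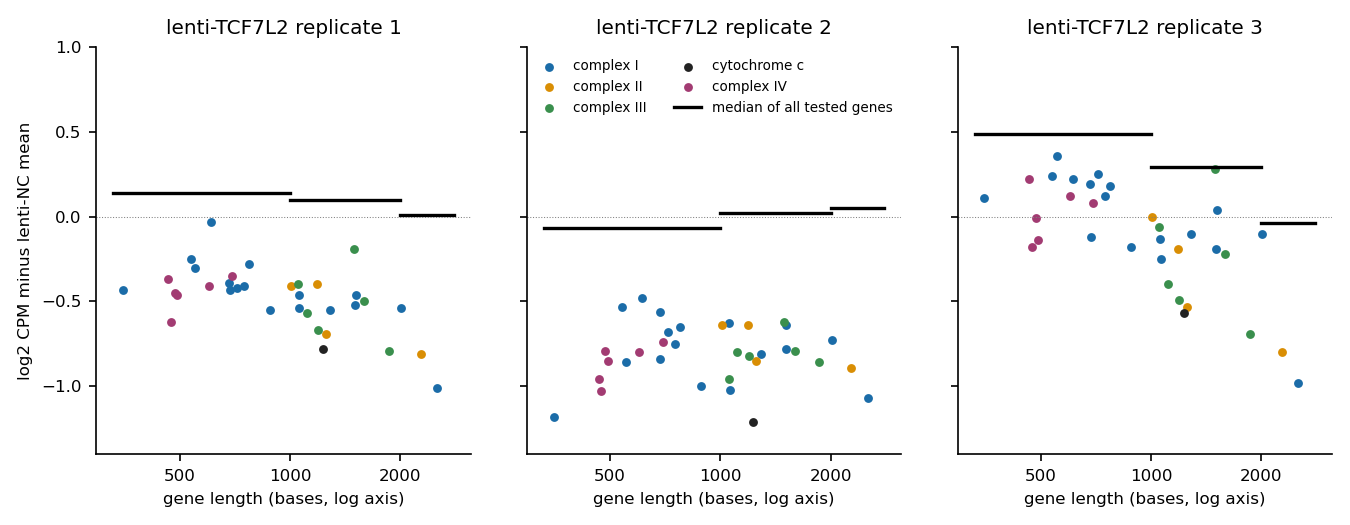
Log2 CPM minus the lenti-NC mean against gene length (log axis) for the 34 subunits in each lenti-TCF7L2 library, coloured by complex; black bars give the median of all tested genes of up to 1000 bases, from there to 2000 and on to 4000, the last drawn over the members' range only. In replicate 3 both the bars and the points fall with length, from 0.49 to -0.04 for the bars, and every point lies below its bar.

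Depending on the setting, the number of members called lower moved by more than 1.5 times: 7 when lenti-NC replicate 2 (9.09% of genes tested were called lower), lenti-NC replicate 3 (9.28%) or lenti-TCF7L2 replicate 1 (11.0%) was left out, 10 without lenti-NC replicate 1 (9.17%), 8 with upper-quartile scaling (12.1%) and 7 with only the 6 libraries compared (9.07%). The 7 members Ndufs1, Sdha, Sdhd, Uqcrc2, Uqcrfs1, Cyc1 and Cycs were called under all 21 alternatives. Of the 21, the call of Ndufs3 was lost in 15, of Ndufa9 in 12, of Ndufa10 in 11, and of Ndufv2 and Cox7b in 10 each. That of Ndufb5 was lost in 6, of Ndufv1 and Sdhc in 5 each, and of Uqcrc1 in 4.

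Markers of the cultured cell types moved in the same libraries, where 13.8% of all genes tested were called lower with lenti-TCF7L2 and 18.0% higher. Of 15 cardiomyocyte markers tested, 13 fell and 1, the atrial light chain Myl7 (0.97), rose with lenti-TCF7L2 (median -0.93). Among those that fell were Myh6, the main atrial and rodent ventricular myosin heavy chain (-1.45), Mybpc3 (-0.93) and Actn2 (-0.87). Their summed level was 51700 to 52470 CPM in controls against 23050 to 29130. Ttn, Cmya5 and Xirp1 were not listed. Of 12 endothelial markers 10 rose, Pecam1 (2.54) with the smallest adjusted p, with a summed level of 655 to 683 CPM in controls against 893 to 1077. Of 10 fibroblast markers 5 rose, among them Lum (0.98), and Postn fell (-0.36), with 52220 to 53740 CPM against 44880 to 63940. Of 8 tested macrophage and leukocyte markers 5 rose, among them Fcer1g (1.43), with 42.9 to 44.2 CPM against 75.7 to 83.3. Of 8 smooth muscle and pericyte markers Kcnj8 (1.15) and Pdgfrb (0.45) rose, with 7347 to 7423 CPM against 6672 to 7824. Aif1, C1qa and C1qb were at 0 in 1, 2 and 3 libraries. Without lenti-TCF7L2 replicate 3, 14 of 15 cardiomyocyte markers fell and 1 rose (median -1.09), and 10 of 12 endothelial, 8 of 10 fibroblast, 6 of 8 macrophage and leukocyte and 3 of 8 smooth muscle and pericyte markers rose. In that fit Postn (-0.24) and Acta2 (-0.29) were called lower, and the endothelial markers Kdr (-0.40) and Flt1 (0.10) were not called. Of all tested genes of up to 1000 bases 17.8% were called lower there and 19.8% higher, and of longer genes 21.9% lower and 21.3% higher. The part of cell composition in the members' fall was not tested.

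Other genes of the pathway were read from lists beyond the 34. Of the other subunits of complex I, 4 of 17 tested were called lower with lenti-TCF7L2 and 0 higher (median -0.29). Among the 4 were Ndufab1, the mitochondrial acyl carrier protein (-0.62 ± 0.10, edgeR adjusted p = 0.00179), Ndufb9 (-0.51) and Ndufb6 (-0.46). Of all genes tested 13.8% were called lower and 18.0% higher. None of the 3 other subunits of complex III passed (median -0.38, Uqcr10 -0.45, Uqcrh -0.38), nor of the 6 of complex IV (median -0.39, Cox6a1 -0.14, Cox8a -0.41). By unadjusted p under 0.05, 0 of the 3 and 3 of the 6 were lower, where 19.3% of genes tested were. Without replicate 3, 17 of 17, 3 of 3 and 5 of 6 were called lower in these lists, where 21.5% of genes tested were, with medians of -0.55, -0.64 and -0.61.

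Subunit isoforms restricted to certain tissues went both ways. The muscle isoforms Cox8b and Cox6a2 fell: Cox8b read 452, 630 and 609 counts in controls against 211, 141 and 277 (-1.55 ± 0.22, adjusted p = 0.000999). Cox6a2 read 13587, 14150 and 14822 counts against 10027, 8343 and 13493 (-0.54 ± 0.14, adjusted p = 0.0177). Cox4i2, the isoform of Cox4 found mainly in lung and induced in low oxygen, rose from 391, 460 and 405 counts to 675, 608 and 1305 (0.92 ± 0.24, adjusted p = 0.0194). Cox6b2, known from testis, rose from 67, 100 and 99 counts to 187, 145 and 345 (1.22 ± 0.29, adjusted p = 0.0132). In these last 2 genes replicate 3 was far the highest, and both are short. Without replicate 3 the same 4 genes were called in the same directions, with Cox8b at -1.78, Cox6a2 at -0.73, Cox4i2 at 0.51 and Cox6b2 at 0.80. Cox7a1 and Cyct were not listed.

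ATP synthase, which uses the proton gradient that the chain builds, was called lower in 5 of 16 genes and higher in 0 (median -0.37), among them its catalytic core genes Atp5f1a (-0.67 ± 0.09, adjusted p = 0.000807) and Atp5f1b (-0.77 ± 0.12, adjusted p = 0.00208) and Atp5pb of the stalk (-0.61 ± 0.11, adjusted p = 0.00400). Of 36 assembly factors tested 9 were lower and 0 higher (median -0.09), among them Coa5, a complex IV assembly factor (-0.85 ± 0.05, adjusted p = 3.02e-05), Lrpprc, which stabilises mitochondrial messenger RNA (-0.55), and Uqcc1, needed for cytochrome b (-0.50). In ubiquinone synthesis 2 of 12 were lower, Coq9 (-0.76) and Coq8a (-0.52), a share near the 13.8% of all genes tested. In the same list 1 was higher, Coq8b (0.72), a smaller share than the 18.0% of all genes tested. Of 15 genes of import, pore and matrix 5 were lower and 0 higher (median -0.22), among them Immt, which shapes the cristae (-0.71), the matrix chaperone Hspa9 (-0.57) and citrate synthase Cs (-0.84). Without replicate 3, 15 of 16 genes of ATP synthase, 14 of 36 assembly factors, 9 of 12 genes of ubiquinone synthesis and 12 of 15 of import, pore and matrix were called lower (21.5% of genes tested), and Coq8b was the only 1 of these called higher.

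Regulators of respiratory genes were lower in 7 of 16 and higher in 0 (median -0.20), where 13.8% of genes tested were called lower and 18.0% higher. Ppargc1a, the coactivator that drives mitochondrial biogenesis, read 525, 574 and 516 counts in controls against 210, 215 and 47 (-1.87 ± 0.43, adjusted p = 0.0107). Esrrb, an oestrogen-related receptor, fell from 71, 73 and 72 counts to 14, 18 and 10 (-2.46 ± 0.21, adjusted p = 9.95e-05), and Ppara, the receptor that controls fatty acid oxidation genes, from 163, 160 and 149 to 44, 69 and 23 (-1.90 ± 0.32, adjusted p = 0.00237). For all 3, replicate 3 was the lowest library. Ppargc1a (2440 bases) and Ppara (2022) fall in the length class whose median in replicate 3 was -0.04, and Esrrb (1302) in the class at 0.29. Without replicate 3 they were at -1.44, -1.58 and -2.26. In that fit 9 of the 16 regulators were called lower and 2 higher, Pprc1 (0.34) and Polg (0.25). Of all tested genes over 1000 bases, 21.9% were called lower there and 21.3% higher. With all libraries Ppargc1b (-1.80), Esrrg (-1.32), Esrra (-0.32) and Tfb2m (-0.32) also passed. Nrf1 (-0.07, adjusted p = 0.741), Gabpa (-0.47, adjusted p = 0.0815), Yy1 (0.01) and Tfam (-0.07) did not, though without replicate 3 Gabpa (-0.28, adjusted p = 0.0164) and Tfam (-0.31, adjusted p = 0.0182) were called lower.

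The second comparison, lenti-shTCF7L2 against lenti-NC, asks which subunits differed with the hairpin. It called 1 of 34 members, Sdha, as lower and 0 as higher, where 2.32% of genes tested were called lower and 1.32% higher, a share near the background. Sdha read 6482, 6670 and 6757 counts in controls against 5388, 5588 and 5552. The groups did not overlap, and the difference was -0.30 ± 0.06 (adjusted p = 0.0252; 95% interval -0.43 to -0.17). The next smallest p-values belonged to Sdhd (-0.28, adjusted p = 0.127) and Ndufs1 (-0.18, adjusted p = 0.145), which with Sdha were the 3 members lower by unadjusted p under 0.05 (8.84% of genes tested). Over the members 29 differences were negative and 5 positive, with a median of -0.12 (0.01 over all genes tested). In 17 of 34 members the 3 lenti-shTCF7L2 libraries lay below all controls (21.0% of genes tested did). Medians were -0.12 in complex I, -0.22 in complex II, -0.15 in complex III and -0.04 in complex IV.

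Cycs, among the largest falls with lenti-TCF7L2, read 4421, 4260 and 4560 counts with lenti-shTCF7L2, overlapping the controls, at -0.07 with a 95% interval of -0.39 to 0.24. Intervals were widest for Cox6c (-0.72 to 0.47) and Ndufs6 (-0.75 to 0.41), so that differences of that size could not be detected there. The call of Sdha was lost in 9 of the 21 alternatives: without any 1 of the 3 lenti-NC or 3 lenti-shTCF7L2 libraries or lenti-TCF7L2 replicate 1, with upper-quartile scaling and with the replicate block. All groups share 1 spread, so the wide lenti-TCF7L2 group also enters this comparison. Without its replicate 3, 6 members were called (10.9% of genes tested were called lower). After length adjustment, which also changes the differences themselves, 6 were (5.16%). With only the 6 libraries compared 15 were (15.5%), of which 7 were in complex I, 3 in complex II and 5 in complex III. The cause of the added calls was not tested. Complex IV had 0 of 6 called in each of these 3 fits. In the pathway lists beyond the members, Coa5 was the only gene called (-0.28, adjusted p = 0.0235), and 0 of 15 cardiomyocyte and 0 of 12 endothelial markers were (cardiomyocyte median -0.07, 49300 to 49820 CPM summed). Of the fibroblast markers 4 of 10 fell, among them Tcf21 (-1.01), and of the other lists Csf1r (1.32), Lyz2 (1.22) and Cnn1 (0.59) rose.

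The third comparison, lenti-TCF7L2 against lenti-shTCF7L2, sets the 2 TCF7L2 viruses against each other. It called 7 of 34 members as lower and 0 as higher (14.7% and 18.4% of genes tested), with a median of -0.30. Complex I had 1 call, Ndufs1 (-0.84 ± 0.06, adjusted p = 2.84e-05); complex II had Sdha (-0.53 ± 0.06, adjusted p = 0.000210) and Sdhd (-0.40 ± 0.09, adjusted p = 0.00735); complex III had Uqcrc2 (-0.66 ± 0.07, adjusted p = 0.000184), Cyc1 (-0.50 ± 0.09, adjusted p = 0.00284) and Uqcrfs1 (-0.36 ± 0.10, adjusted p = 0.0205). Cycs was at -0.76 ± 0.14 (adjusted p = 0.00332), and 0 of 6 in complex IV passed. Without lenti-TCF7L2 replicate 3, 32 of 34 were called lower (22.3% of genes tested), all but Ndufs5 and Ndufa8, and after length adjustment 28 of 34 (18.7%). With DESeq2 11 were called (12.8% of genes tested). Ndufa8 (0.10) and Ndufs5 (0.01) were the only 2 positive differences with all libraries, and neither passed, though Ndufa8 was called higher without lenti-TCF7L2 replicate 2 (0.27, adjusted p = 0.0349).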

How the data were processed

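Groups came from the sample titles. RSEM 1.3.1, HISAT2, DESeq2 1.4.5, Bowtie2 and build rn6 are named, without roles, per the submitters' processing notes; per the labels' protocols, oligo(dT)-selected RNA was sequenced on a BGISEQ-500. Each deposited table gives expected counts (not normalised), FPKM and gene length in bases for 1 library, per the file headers; a gene not listed in a library was set to 0. Here expected counts were rounded, filtered with filterByExpr (11761 genes kept, 2846 set aside) and scaled by TMM. They were tested, 2-sided, with edgeR 4.0.16 in R 4.3.3 (quasi-likelihood, group only, all 9 libraries, Benjamini-Hochberg over all genes tested, threshold 0.05). The procedure was first run on simulated counts. These held no gene-length trend, so that run does not bear on the trend in lenti-TCF7L2 replicate 3. The common biological coefficient of variation was 14.9%. Log2 CPM used a prior count of 2. Length adjustment removed a lowess trend (span 0.3) on log2 length per library. Motifs were exact matches. Alternatives also used DESeq2 1.42.0 and limma 3.58.1 (log2 of FPKM plus 1 or 0.1).

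The 34 members, the lists, the length adjustment and the alternatives were chosen with earlier results of these data known. Values in every library were given, per complex, for the 3 members with the smallest and the 1 with the largest adjusted p with lenti-TCF7L2, Cycs, and the 3 highest and 3 lowest by FPKM; from other lists, up to 3 called genes by smallest adjusted p or, with none, up to 2 by highest mean. The regulators Ppargc1b, Esrrg, Esrra, Tfb2m, Nrf1, Gabpa, Yy1, Tfam, Pprc1 and Polg were named after their values were seen. So were Myl7, Postn, Acta2, Kdr, Flt1 and Cox4i2. Replicates differed beyond sampling noise (chi-square per gene 2.31 to 108.63). Genomic positions in rn6 were not used here, and 1 gene of the wider lists is not reported here.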

Additional observations from a re-analysis of the deposited data

How the results depend on the processing

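Counts of calls depended on the setting. Without 1 library at a time, members called lower ran from 7 to 33 in lenti-TCF7L2 against lenti-NC, 0 to 6 in lenti-shTCF7L2 against lenti-NC and 6 to 32 in lenti-TCF7L2 against lenti-shTCF7L2, where 0 to 1 were higher; genes called lower ran from 1079 to 2638, 66 to 1286 and 1136 to 2669, and genes called higher in the first 2 from 1341 to 2865 and 22 to 770. Length adjustment gave 33, 6 and 28 members lower, 607 genes lower and 382 higher for the hairpin, and complex II medians of -0.69 and -0.26. With replicate 3 also left out there were 34, 16 and 33 members, 2641, 1479 and 2875 genes lower, 1135 higher for the hairpin, and a complex II median of -0.25 for the hairpin; Ndufs5 then reversed between the TCF7L2 viruses, from 0.01 to -0.19 (edgeR adjusted p = 0.0188). Only the 6 libraries compared gave 7 and 15 members, 1056, 1787 and 1087 genes lower, and 1265 and 1507 higher. Upper-quartile scaling gave 8 and 0 members, and DESeq2 2 for the hairpin (435 genes lower) and 11 between the TCF7L2 viruses. Limma on log2 FPKM gave a complex II median of -0.19 for the hairpin. Residual correlations between libraries with the same replicate number were -0.067 to 0.151 (2 of 9 over 0.1). Whether replicate numbers pair the libraries was not tested. A replicate block gave 18, 0 and 12 members lower, and 163 lower and 81 higher genes for the hairpin. Where a setting changed a count, the cause was not tested, except that leaving out libraries or groups also changes the spread the fit uses.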
